A study of Dicentrarchus labrax with 23 samples.

Results

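The middle intestine (MI) of the European sea bass, Dicentrarchus labrax, was compared with the posterior intestine (PI) on a custom oligonucleotide array, using the 7 arrays labelled as MI and the 8 labelled as PI out of 23 in the series. Of the 14147 sea bass probes other than the control spots, 12624 were tested. The other 1523 were not, as too few arrays gave them a signal well above background or a usable value. MI was taken from the middle of the tract and PI from its end, which includes the rectum. All fish were reared, fed a commercial diet and fasted overnight before sampling, no group was treated, and the labels give no genotype, time point or age. Each array carried Cy3-labelled RNA from 1 segment of an individual. The 8 arrays of the anterior intestine (AI) did not enter the main test and serve to place a few MI values along the tract. They entered only the alternatives of a joint fit, a filter over 23 arrays and quantile normalization. The labels do not say whether MI and PI arrays of equal number came from the same fish.

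In teleosts the gut in front of the last segment digests food in the lumen and at the brush border and absorbs lipids, sugars, amino acids and small peptides. The epithelium of the last segment is known for taking up whole macromolecules by endocytosis and breaking them down in large vacuoles rich in lysosomal enzymes. Position along the gut is laid down by homeobox genes, with the highest-numbered Hox genes at the hind end.

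Many probes differed between the segments in both directions. Of 12624 probes tested, 4481 differed at an adjusted p under 0.05 and are termed called (35.5%), 2054 of them higher in MI (16.3%) and 2427 higher in PI (19.2%). A difference of 2-fold or more was found for 1630 of them (12.9%), 830 higher in MI (6.57%) and 800 higher in PI (6.34%). Differences of at least 10-fold numbered 156 higher in MI and 84 higher in PI, and those of at least 100-fold 45 in MI and 8 in PI. The lowest array of the higher segment lay above the highest array of the other for 1487 probes (11.8%), 697 of them higher in MI (5.52%) and 790 in PI (6.26%). Signals are given as log2 of the processed intensity minus the 75th percentile of the same array, so 0 is the 75th percentile, and a positive difference is higher in MI. Tests were two-sided with limma over all probes, adjusted by the Benjamini-Hochberg method. With normexp background correction the calls numbered 2362 higher in MI and 1607 higher in PI, and MI held 59.5% of them against 45.8% without it. That correction moved the median difference of all probes to 0.14, against -0.02 without it, and made the folds of the genes named here smaller, by 1.78 times in the median gene.

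**Figure D1:**
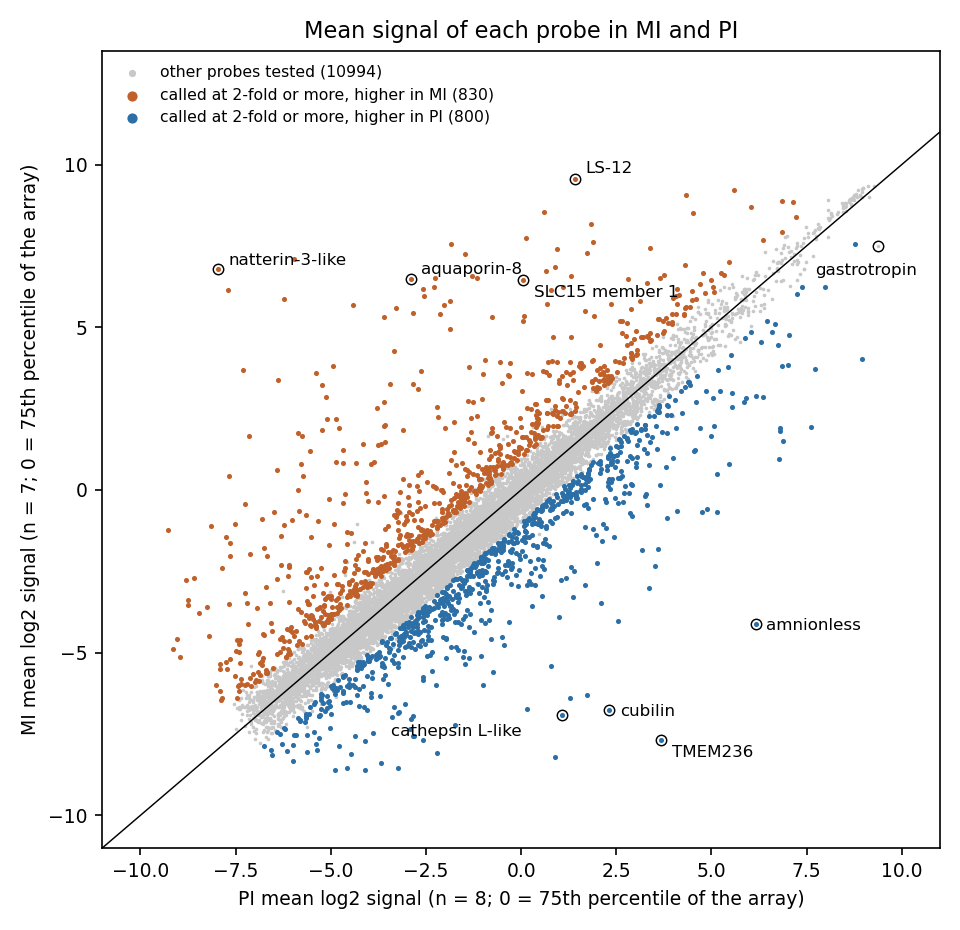
Mean log2 signal of every probe tested in MI (vertical axis, n = 7) against PI (horizontal axis, n = 8), both as log2 units above or below the 75th percentile of the array, with the diagonal marking equal signal. The 830 probes called at 2-fold or more and higher in MI lie above the diagonal and reach 14.75 log2 units (natterin-3-like), and the 800 higher in PI lie below it and reach -11.36 (TMEM236).

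Not every array stood equally far from the other segment. Over the 1612 probes called at 2-fold with a value on every array, MI replicate 3 was the MI array nearest to PI for 615 probes (38.2%) and MI replicate 6 for 312 (19.4%). On the other side, PI replicate 7 was nearest to MI for 474 probes (29.4%) and PI replicate 8 for 290 (18.0%). Below, the difference without an array is given where leaving it out moved a fold by more than 1.5 times. Without PI replicates 7 and 8 together, 4430 probes were called. Each of the 3 slides carried arrays of both segments. Within single slides 1306, 1436 and 264 probes were called, and with slide as a block 4708. Between 4447 and 4470 of the 4481 differences kept their direction within each slide. These probes were called on all arrays together, those of each slide among them, so this count is not independent of the calls. Of the sea bass probes, 82.7% to 92.6% were well above background on the MI arrays and 86.5% to 93.0% on the PI arrays, with no saturated spot.

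Names were available for 3652 probes, from the list of genes that the study itself found to differ between AI and MI together and PI on these arrays, and 3461 of them were tested. Of these, 3063 were called between MI and PI (88.5%), 1390 higher in MI and 1673 higher in PI, against 15.5% of the 9163 tested probes without a name. The counts of members below, called or without overlap, therefore describe how the named genes split between the segments, and are not independent evidence that they differ. Genes outside that list carry no name here, so every count of a family or list covers only its named members. Fewer probes are named than the study called, so some genes it called are among the probes without a name. The study does not say whether its list was also cut by fold. Such a cut would make the medians and the counts below larger. Over all probes tested, 35.5% were called and 11.8% had no overlap. Among the probes without a name, L3_78051 (2.77) and L1_60775 (2.72) had the largest called log2 differences on the MI side, and L12_83371 (-3.60) and L12_81080 (-3.53) on the PI side. The mRNA of a whole segment was measured, so a lower signal from fewer cells of a type cannot be told apart from less mRNA per cell.

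**Figure D2:**
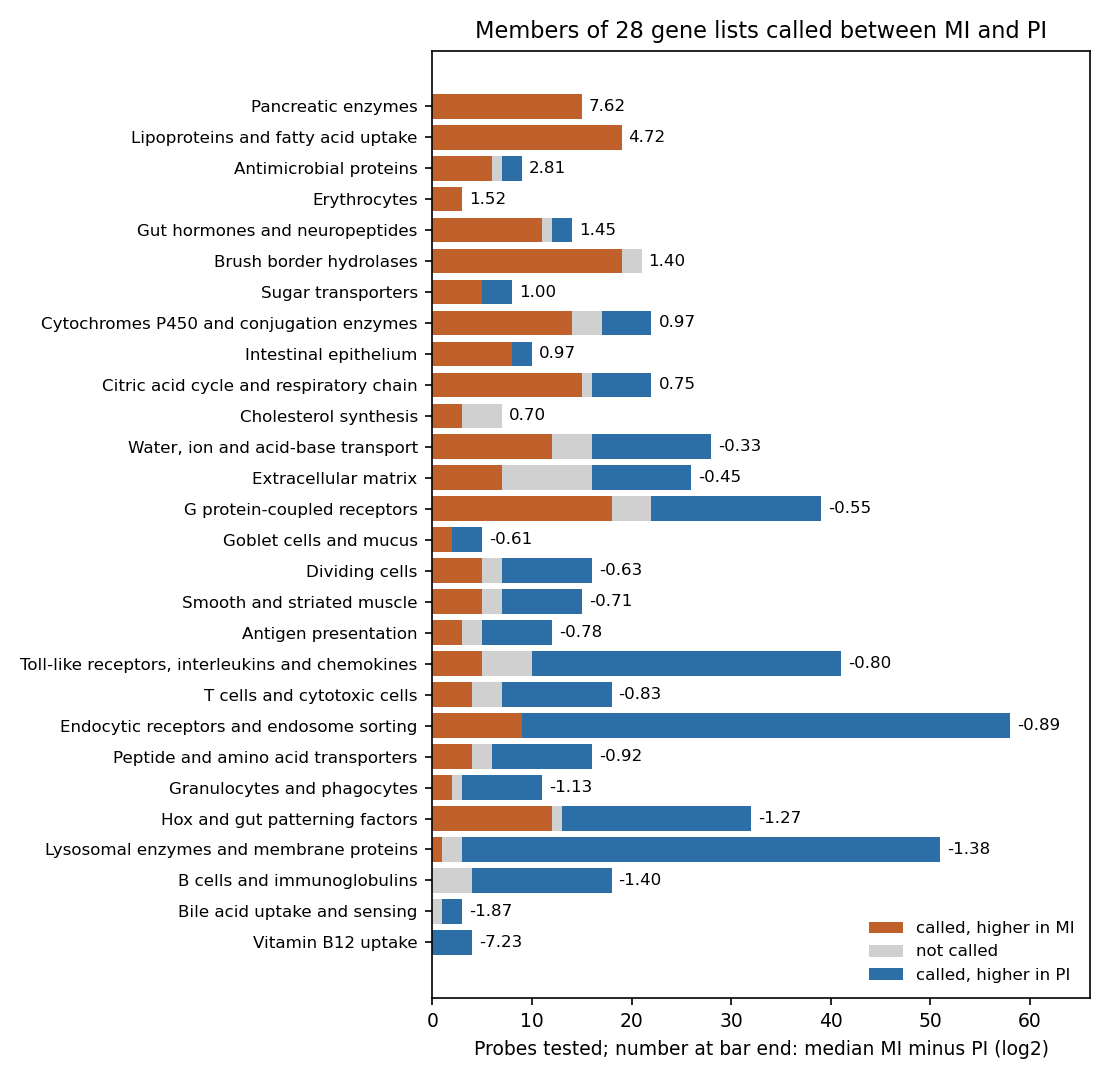
Number of probes tested in each of 28 gene lists, split into those called higher in MI, those not called and those called higher in PI, with the median MI minus PI log2 difference at the end of each bar. Pancreatic enzymes (median 7.62) and lipoproteins and fatty acid uptake (4.72) stand at the MI end, and vitamin B12 uptake (-7.23), bile acid genes (-1.87), B cells (-1.40) and lysosomal proteins (-1.38) at the PI end.

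Both tissues carried intestinal epithelial mRNA. Of 10 epithelial genes tested, 8 were higher in MI and 2 higher in PI. The larger difference of these 2 was that of the Na(+)/H(+) exchange regulatory cofactor NHE-RF1 (log2 difference -2.15). It measured -2.11 to 0.67 in MI and 1.06 to 2.13 in PI, without overlap. Intestinal fatty acid-binding protein, which carries fatty acids inside enterocytes, had signals of 8.23 to 8.81 (median 8.46) in MI and 2.98 to 5.81 (median 4.54) in PI and was well above background on all 15 arrays (log2 difference 3.98, SE 0.34, adjusted p = 1.8e-07). The homeobox protein CDX-1, which maintains intestinal identity, measured 3.53 to 4.36 (median 4.14) in MI and 2.18 to 3.42 (median 2.89) in PI, and the groups did not overlap (log2 difference 1.18, SE 0.16, adjusted p = 3.3e-05). The mean over the 9 epithelial genes with a value on every array ran between 2.38 and 2.67 on the MI arrays and between 0.73 and 1.98 on the PI arrays, with replicates 7 and 8 highest among the PI arrays.

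Genes of the exocrine pancreas gave some of the widest differences and also the widest scatter. All 15 pancreatic enzymes tested were called higher in MI, with a median log2 difference of 7.62, yet the groups were free of overlap for only 1. Chymotrypsin-like elastase family member 2A, a digestive protease, measured -0.61 to 8.66 (median 6.9) in MI and -8.35 to 2.99 (median -6.13) in PI (log2 difference 10.10, SE 1.92, adjusted p = 6.9e-04). It was well above background on all 7 MI arrays and on 5 of 8 PI arrays. Bile salt-activated lipase, which splits dietary fats and esters, measured -0.93 to 8.75 (median 6.45) in MI and -6.43 to 2.05 (median -5.19) in PI (log2 difference 8.92, SE 1.67, adjusted p = 5.9e-04). Pancreatic alpha-amylase, which digests starch, measured -2.29 to 7.85 (median 4.59) in MI and -5.37 to 1.41 (median -4.63) in PI (log2 difference 7.63, SE 1.57, adjusted p = 0.0013). In each of the 3, MI replicate 4 was the lowest MI array, and PI replicates 5 and 6 were the highest PI arrays, above it. The mean over the list was -1.56 on MI replicate 4 and 1.02 on MI replicate 2, against 4.42 to 7.23 on the other MI arrays. On the PI side it was 0.33 and 0.77 on replicates 5 and 6, against -4.47 to -3.85 on the others. Of the 15 enzymes, 13 were called within slide 1, 0 within slide 2 and 3 within slide 3. Over all probes the calls within these slides numbered 1306, 1436 and 264.

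Single arrays moved these differences. For elastase 2A the log2 difference was 10.71 without MI replicate 2, 11.15 without MI replicate 4, 11.09 without PI replicate 5, 11.16 without PI replicate 6 and 8.92 without PI replicates 7 and 8. For bile salt-activated lipase it was 9.53 without MI replicate 2, 9.96 without MI replicate 4, 9.72 without PI replicate 5 and 9.73 without PI replicate 6. For amylase it lay between 7.04 without MI replicate 5 and 8.73 without MI replicate 4. A gene outside the list shared its lowest MI arrays and highest PI arrays. High choriolytic enzyme 1, named for a hatching protease, measured -4.81 to 5.32 (median 2.79) in MI and -9.96 to -1.08 (median -8.46) in PI, again with MI replicates 4 and 2 lowest and PI replicates 5 and 6 highest (log2 difference 8.82, SE 1.67, adjusted p = 6.6e-04). Its log2 difference was 7.45 with a floor on dim signals, 9.9 without MI replicate 4, 8.21 without MI replicate 6, 9.5 without PI replicate 5, 9.69 without PI replicate 6 and 8.1 without PI replicates 7 and 8. Trypsinogen-like protein 3, measured 5.49 to 7.33 (median 7.1) in MI and -4.69 to 3.92 (median 1.04) in PI, had PI replicates 7 and 8 and not 5 and 6 as its highest PI arrays, and was the 1 member of the list whose groups did not overlap (log2 difference 5.95, SE 1.0, adjusted p = 2.3e-04). Its difference was 5.15 without PI replicate 4 and 6.89 without PI replicates 7 and 8. On the AI arrays it measured 5.98 to 7.62, against -1.73 to 7.22 for elastase 2A. It stands in the list by its name, and did not share the scatter of elastase 2A. Whether pancreatic tissue in a sample has a part in any other difference was not tested.

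**Figure D3:**
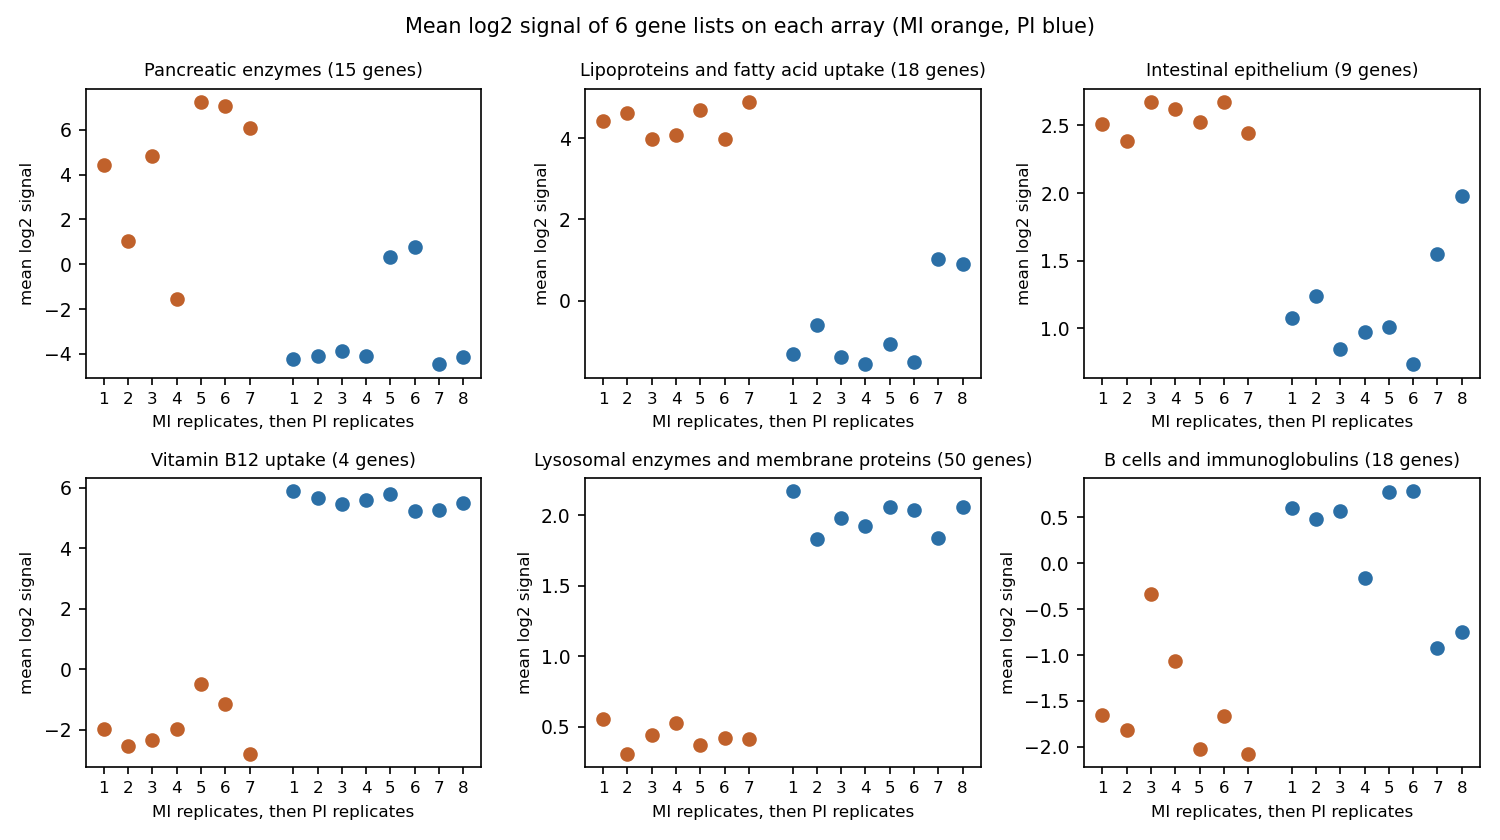
Mean log2 signal over the members of 6 gene lists (vertical axes) on each of the 7 MI arrays and then each of 8 PI arrays (horizontal axes, replicate numbers), using members with a value on every array. MI replicate 4 lies at -1.56 and PI replicates 5 and 6 at 0.33 and 0.77 for pancreatic enzymes, PI replicates 7 and 8 lie at 1.03 and 0.91 for lipoproteins and fatty acid uptake, and MI replicate 3 lies at -0.33 for B cells, while vitamin B12 uptake and lysosomal genes separate every MI array from every PI array.

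Enzymes of the brush border, the digestive surface of enterocytes, were higher in MI. Of 21 tested, 19 were called higher in MI, none higher in PI and 2 were not called, with a median of 1.40, and 14 had no overlap between the groups. The count called higher in PI was 2 with quantile normalization, with normexp correction and with slide as a block. Lactase-phlorizin hydrolase, which splits lactose and glycosylceramides, measured 6.82 to 7.51 (median 7.29) in MI and -4.45 to 4.03 (median -3.35) in PI (log2 difference 8.73, SE 1.2, adjusted p = 3.3e-05). The MI arrays lay within 1 log2 unit of each other. PI replicates 7 and 8, at 4.03 and 3.37, were the PI arrays nearest to the MI range but stayed below its lowest array at 6.82. The difference was 9.52 without PI replicate 7, 9.42 without PI replicate 8 and 10.45 without PI replicates 7 and 8. Ectonucleotide pyrophosphatase/phosphodiesterase family member 7, the intestinal alkaline sphingomyelinase, measured 5.55 to 6.52 (median 5.82) in MI and -5.76 to 2.57 (median -3.64) in PI (log2 difference 8.52, SE 1.15, adjusted p = 2.6e-05). Its difference was 9.18 without PI replicate 7, 9.25 without PI replicate 8 and 10.14 without PI replicates 7 and 8. Again PI replicates 7 and 8 were the highest PI arrays, and the groups did not overlap. Neutral ceramidase, which acts on the product of that enzyme, measured 7.24 to 8.2 (median 7.72) in MI and -5.51 to 3.6 (median 0.84) in PI, with PI replicates 5 and 6 lowest (log2 difference 7.61, SE 1.18, adjusted p = 1.0e-04; 6.8 without PI replicate 5, 6.92 without PI replicate 6 and 8.56 without PI replicates 7 and 8).

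Enteropeptidase, the brush border protease that activates trypsinogen, measured 3.62 to 4.27 (median 3.99) in MI and -2.86 to 1.12 (median -1.27) in PI (log2 difference 4.94, SE 0.60, adjusted p = 8.5e-06; 5.61 without PI replicates 7 and 8). Membrane-associated phospholipase B1, which digests phospholipids, measured 0.51 to 4.09 (median 2.81) in MI and -4.33 to -1.42 (median -4.08) in PI (log2 difference 6.32, SE 0.50, adjusted p = 9.3e-08). For both the groups were apart. Sucrase-isomaltase, which digests sucrose and starch fragments, differed far less and the groups overlapped, with 1.7 to 2.76 (median 2.15) in MI and 0.59 to 2.23 (median 1.29) in PI (log2 difference 0.71, SE 0.22, adjusted p = 0.021).

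The named genes of the machinery that packs absorbed fat into lipoproteins were higher in MI. All 19 lipoprotein and fatty acid uptake genes tested were called higher in MI, 16 of them with no overlap, at a median of 4.72, and all 9 apolipoproteins tested were higher in MI under each of 4 other ways of scaling or flooring the signals. The 14 kDa apolipoprotein measured 5.64 to 8.41 (median 7.52) in MI and -7.22 to -4.7 (median -6.01) in PI, a gap of more than 10 log2 units between the groups (log2 difference 13.09, SE 0.49, adjusted p = 1.8e-11). Apolipoprotein C-II, a cofactor of lipoprotein lipase, measured 6.77 to 8.39 (median 7.34) in MI and -3.16 to 1.54 (median -2.79) in PI (log2 difference 9.43, SE 0.66, adjusted p = 2.0e-08; 10.34 without PI replicates 7 and 8). Apolipoprotein B, the scaffold of chylomicrons and other large lipoproteins, measured 8.69 to 9.42 (median 9.09) in MI and 1.8 to 6.66 (median 3.94) in PI (log2 difference 4.72, SE 0.55, adjusted p = 6.3e-06; 5.47 without PI replicates 7 and 8). Type-4 ice-structuring protein LS-12, a fish protein related to apolipoproteins, measured 9.17 to 10.29 (median 9.46) in MI and -0.79 to 5.88 (median 0.06) in PI (log2 difference 8.14, SE 0.93, adjusted p = 4.8e-06). The groups did not overlap, although PI replicates 7 and 8 lay at 5.33 and 5.88, and the difference was 8.78 without PI replicate 8 and 9.54 without PI replicates 7 and 8.

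Apolipoprotein A-IV, secreted with chylomicrons, measured 8.19 to 9.15 (median 8.77) in MI and 5.02 to 7.36 (median 5.85) in PI, without overlap (log2 difference 2.65, SE 0.36, adjusted p = 2.9e-05). Apolipoprotein A-I, the main protein of high-density lipoproteins, measured -1.51 to 0.08 (median -1.27) in MI and -9.32 to -1.07 (median -8.03) in PI and was well above background on 3 of 8 PI arrays (log2 difference 5.15, SE 1.25, adjusted p = 0.0043). Only PI replicates 7 and 8 reached the MI range, and the difference was 4.16 with a floor on dim signals, 5.89 without PI replicate 7, 5.87 without PI replicate 8 and 6.85 without PI replicates 7 and 8. Platelet glycoprotein 4, the fatty acid translocase CD36, measured 5.35 to 6.88 (median 6.12) in MI and -5.94 to 2.34 (median -4.34) in PI, without overlap (log2 difference 8.73, SE 1.18, adjusted p = 2.7e-05; 9.41 without PI replicate 7, 9.43 without PI replicate 8 and 10.35 without PI replicates 7 and 8). Diacylglycerol O-acyltransferase 2, which makes the last step of triglyceride synthesis, had the smallest p of the comparison, with 7.09 to 8.26 (median 7.54) in MI and 1.36 to 2.16 (median 1.97) in PI (log2 difference 5.73, SE 0.16, adjusted p = 2.4e-12). Of 7 cholesterol synthesis genes, 3 were called higher in MI and 4 were not called, and methylsterol monooxygenase 1 differed by 1.35 (SE 0.23, adjusted p = 2.0e-04), with 3.98 to 5.18 (median 4.66) in MI and 2.36 to 3.77 (median 3.54) in PI and no overlap.

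Transporters of peptides and amino acids divided between the segments, with 4 of 16 called higher in MI, 10 higher in PI and 2 not called (median -0.92). Solute carrier family 15 member 1, the brush border carrier of small peptides, measured 6.07 to 6.89 (median 6.38) in MI and -1.17 to 2.62 (median -0.62) in PI and separated the groups (log2 difference 6.4, SE 0.49, adjusted p = 6.2e-08; 7.13 without PI replicates 7 and 8). Its relative solute carrier family 15 member 2, a peptide carrier of higher affinity in mammals, ran the other way at -4.7 to 2.8 (median 0.83) in MI and 2.32 to 3.2 (median 2.86) in PI (log2 difference -2.92, SE 0.88, adjusted p = 0.017), or -2.15 without MI replicate 7. Its groups overlapped, MI replicate 7 being the lowest MI array. Excitatory amino acid transporter 3, which takes up glutamate and aspartate, measured -2.11 to 5.05 (median 3.93) in MI and 5.27 to 6.3 (median 5.94) in PI, with the same MI array lowest and no overlap (log2 difference -3.15, SE 0.93, adjusted p = 0.015; -2.34 without MI replicate 7). The sodium-dependent neutral amino acid transporter B(0)AT3 measured 3.96 to 5.72 (median 5.34) in MI and 5.8 to 6.3 (median 6.09) in PI, and the groups did not overlap (log2 difference -1.0, SE 0.24, adjusted p = 0.0041).

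Of 8 sugar transporters, 5 were called higher in MI and 3 higher in PI, or 5 and 1 with normexp correction. The largest difference was that of member 5 of solute carrier family 2, a family named as facilitated glucose transporters. Which sugar member 5 carries was not tested. It measured 4.19 to 6.08 (median 5.49) in MI and -2.68 to 2.49 (median 0.39) in PI, without overlap (log2 difference 5.27, SE 0.59, adjusted p = 4.1e-06; 5.86 without PI replicates 7 and 8). Sodium/glucose cotransporter 1, the main active carrier of glucose into enterocytes, measured 4.36 to 5.13 (median 4.97) in MI and 3.21 to 4.4 (median 3.78) in PI, and the ranges overlapped narrowly (log2 difference 1.12, SE 0.16, adjusted p = 6.0e-05).

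Among 28 water, ion and acid-base transport genes, 12 were called higher in MI and 12 higher in PI, and the median was -0.33, or 0.09 with normexp correction, where 4 were called higher in PI. Aquaporin-8, a water channel, measured 4.89 to 7.21 (median 6.65) in MI and -4.69 to -0.97 (median -3.0) in PI, and the lowest MI array stood more than 5 log2 units above the highest PI array (log2 difference 9.4, SE 0.47, adjusted p = 4.2e-10). Carbonic anhydrases, which supply bicarbonate and protons, included 3 higher in MI and 1 higher in PI. Carbonic anhydrase 1 measured 0.77 to 2.54 (median 1.28) in MI and -4.18 to -2.86 (median -3.71) in PI (log2 difference 5.06, SE 0.25, adjusted p = 4.2e-10). Carbonic anhydrase 4, a membrane-bound form, was well above background on 1 of 8 PI arrays and measured -4.26 to 0.94 (median 0.06) in MI and -9.03 to -6.51 (median -8.39) in PI (log2 difference 7.05, SE 0.68, adjusted p = 7.9e-07; 5.93 with a floor on dim signals). For neither anhydrase did the groups overlap. Solute carrier family 26 member 6, an anion exchanger that marine teleosts use to secrete bicarbonate into the gut, measured 0.26 to 2.34 (median 1.32) in MI and -8.64 to -2.55 (median -5.73) in PI (log2 difference 6.73, SE 0.72, adjusted p = 2.3e-06; 7.46 without PI replicates 7 and 8). The electrogenic sodium bicarbonate cotransporter 1 measured -0.22 to 2.47 (median 0.48) in MI and -6.01 to -2.62 (median -5.11) in PI (log2 difference 5.51, SE 0.54, adjusted p = 9.7e-07; 6.19 without PI replicates 7 and 8). In both the groups were apart.

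The genes of vitamin B12 uptake had the most negative median of the 28 lists. All 4 genes tested were higher in PI with no overlap, at a median of -7.23. Protein amnionless, the membrane anchor of the vitamin B12 receptor, measured -6.46 to -0.72 (median -4.54) in MI and 5.54 to 6.73 (median 6.18) in PI and was well above background on 6 of 7 MI arrays (log2 difference -10.28, SE 0.61, adjusted p = 3.0e-09). Cubilin, the large endocytic receptor that amnionless carries to the surface, measured -8.14 to -4.63 (median -7.06) in MI and 2.0 to 2.53 (median 2.35) in PI and was well above background on 2 of 7 MI arrays (log2 difference -9.07, SE 0.38, adjusted p = 6.5e-11; -8.47 with a floor on dim signals). For both, the lowest PI array stood more than 6 log2 units above the highest MI array. Transcobalamin-2, a carrier of the vitamin, measured 1.09 to 1.97 (median 1.46) in MI and 6.35 to 7.4 (median 6.86) in PI, with less than 1 log2 unit of spread in MI (log2 difference -5.38, SE 0.17, adjusted p = 3.6e-12). Gastric intrinsic factor-like, a relative of the factor that binds the vitamin in the lumen, measured -1.7 to 3.09 (median 2.73) in MI and 5.66 to 7.44 (median 6.93) in PI (log2 difference -4.98, SE 0.59, adjusted p = 7.3e-06; -4.39 without MI replicate 7). MI replicate 7 was its lowest MI array.

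Receptors and sorting proteins of endocytosis were mostly higher in PI. Of 58 tested, 9 were called higher in MI and 49 higher in PI, at a median of -0.89, and 32 were higher in PI with no overlap. With normexp correction 39 were called higher in PI. Low-density lipoprotein receptor-related protein 2 (megalin), a scavenger receptor that works with cubilin, measured -5.38 to -3.71 (median -4.97) in MI and -0.78 to -0.22 (median -0.40) in PI (log2 difference -4.31, SE 0.21, adjusted p = 4.2e-10). Disabled homolog 2, the adaptor that links megalin to clathrin, measured -1.28 to 0.87 (median 0.31) in MI and 1.26 to 3.34 (median 3.03) in PI (log2 difference -2.6, SE 0.33, adjusted p = 1.3e-05). Both receptor and adaptor separated the groups. Unconventional myosin-Vb, a motor that moves recycling endosomes, measured -7.57 to -5.32 (median -6.29) in MI and 0.88 to 1.62 (median 1.32) in PI, a gap of more than 6 log2 units, and was well above background on 3 of 7 MI arrays (log2 difference -7.67, SE 0.25, adjusted p = 5.9e-12). Sorting nexin-6-like, of a family that sorts cargo on endosomes, measured -1.35 to 0.67 (median -0.63) in MI and 4.65 to 5.48 (median 5.2) in PI, with MI replicate 3 highest in MI (log2 difference -5.83, SE 0.25, adjusted p = 6.5e-11). Among 14 sorting nexins 1 was called higher in MI and 13 higher in PI, and with normexp correction 1 and 9 were called while 3 had the sign of MI. Of 12 adaptor complex and clathrin genes tested, 11 were higher in PI.

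The named lysosomal enzymes and membrane proteins were nearly all higher in PI. Of 51 tested, 1 was called higher in MI, 48 higher in PI and 2 not, with 34 at 2-fold or more and 36 without overlap. The mean over the list was 0.31 to 0.55 on the MI arrays and 1.84 to 2.17 on the PI arrays. Cathepsin L-like, a lysosomal cysteine protease, measured -7.79 to -5.73 (median -7.14) in MI and 0.48 to 1.5 (median 1.12) in PI and was well above background on 2 of 7 MI arrays (log2 difference -8.0, SE 0.29, adjusted p = 1.2e-11). Beta-galactosidase, which removes galactose from glycoconjugates, measured 0.12 to 1.35 (median 0.93) in MI and 4.74 to 5.88 (median 5.49) in PI (log2 difference -4.67, SE 0.21, adjusted p = 1.6e-10). Lysosomal protective protein, the carboxypeptidase that stabilises that enzyme, measured 2.55 to 3.19 (median 2.81) in MI and 6.08 to 6.59 (median 6.37) in PI, with spreads under 1 log2 unit in both groups (log2 difference -3.49, SE 0.12, adjusted p = 9.6e-12). None of these 3 overlapped between the groups. Galactocerebrosidase, which degrades galactosylceramide, measured 2.37 to 3.44 (median 2.71) in MI and 5.67 to 6.39 (median 5.89) in PI (log2 difference -3.08, SE 0.16, adjusted p = 7.8e-10). Legumain, an asparaginyl protease of lysosomes, measured 5.52 to 6.5 (median 6.36) in MI and 7.37 to 8.44 (median 8.05) in PI (log2 difference -1.76, SE 0.17, adjusted p = 7.4e-07). All 11 named subunits of the V-type proton ATPase were higher in PI with no overlap, at -2.24 to -0.89. They kept that call with normexp correction, and subunits without a name here were not counted. This pump acidifies endosomes and lysosomes. Its catalytic subunit A measured 0.06 to 0.58 (median 0.37) in MI and 2.26 to 3.07 (median 2.58) in PI (log2 difference -2.24, SE 0.13, adjusted p = 2.4e-09).

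**Figure D4:**
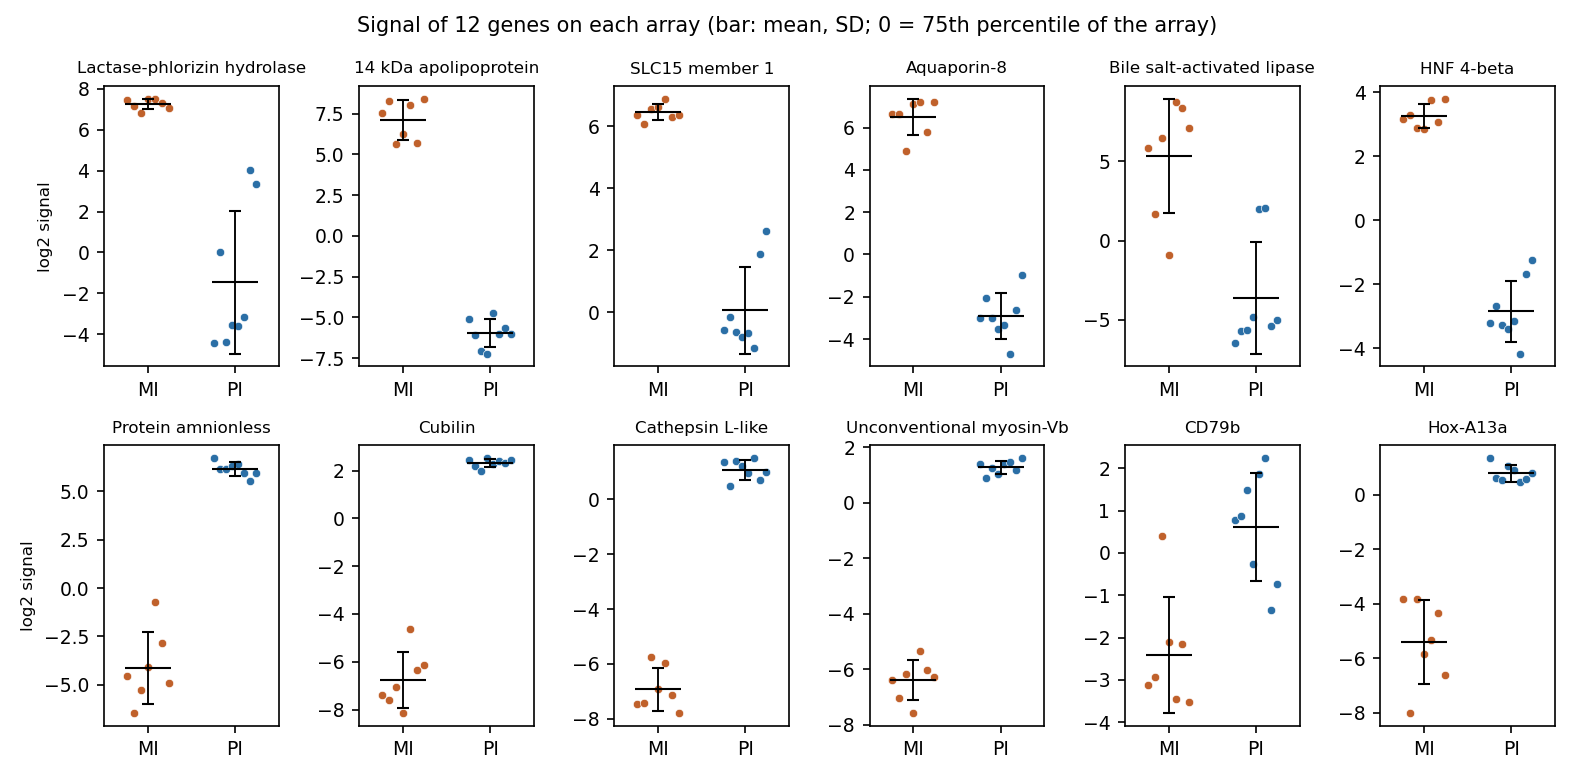
Log2 signal of 12 genes on each MI array (left, orange) and each PI array (right, blue), each panel on its own vertical axis with 0 at the 75th percentile of the array, and with the mean and SD of each group as bars. Lactase, solute carrier family 15 member 1 and HNF 4-beta are tight in MI with PI replicates 7 and 8 highest in PI, bile salt-activated lipase and CD79b overlap between the groups, and amnionless, cubilin, cathepsin L-like and myosin-Vb do not.

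The named Hox genes of the trunk and gut axis were higher in PI. All 16 Hox genes tested were called higher in PI, at -6.89 to -1.13, and 12 had no overlap. With normexp correction 15 kept that sign and 13 the call. The 3 Hox13 genes, which mark the hind end of the trunk and gut, differed by -6.89 to -4.74, the 3 Hox11 genes by -5.12 to -1.43, the 3 Hox9 genes by -3.19 to -1.63, and the 7 genes of groups 2 to 7 by -5.47 to -1.13. Hox-C13a measured -8.65 to -5.41 (median -6.5) in MI and -1.93 to 1.33 (median 0.39) in PI and was well above background on 3 of 7 MI arrays (log2 difference -6.89, SE 0.50, adjusted p = 2.9e-08; -6.27 with a floor on dim signals). Hox-A13a measured -8.01 to -3.83 (median -5.33) in MI and 0.48 to 1.36 (median 0.71) in PI, also without overlap (log2 difference -6.2, SE 0.51, adjusted p = 1.4e-07). Hox-D4b had the largest difference of groups 2 to 7, with -8.51 to -6.51 (median -7.2) in MI and -2.61 to -1.35 (median -1.61) in PI and 1 of 7 MI arrays well above background (log2 difference -5.47, SE 0.27, adjusted p = 4.2e-10; -4.77 with a floor on dim signals).

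Factors of the digestive epithelium ran the other way. All 5 GATA factors and all 3 hepatocyte nuclear factors 4 tested were called higher in MI with no overlap, and all were called higher in MI with normexp correction too. Hepatocyte nuclear factor 4-beta measured 2.85 to 3.8 (median 3.17) in MI and -4.16 to -1.25 (median -3.18) in PI (log2 difference 6.1, SE 0.36, adjusted p = 2.6e-09). GATA-binding factor 5-A, of a family that sets endoderm identity, measured 4.59 to 5.48 (median 5.23) in MI and -1.8 to 3.4 (median -0.42) in PI (log2 difference 5.13, SE 0.63, adjusted p = 9.8e-06; 6.02 without PI replicates 7 and 8). Neither of these 2 genes overlapped between the groups. Both GATA-4 probes were well above background on all 7 MI arrays and on no PI array. On the MI arrays GATA-4-like measured -5.59 to -1.27 (median -2.66) and GATA-4 -5.44 to -1.93 (median -3.24). The fold was at least 21.2 for GATA-4-like (adjusted p = 1.0e-07) and at least 14 for GATA-4 (adjusted p = 1.7e-07). Such a bound, here and below, sets the mean of the higher segment against the lowest signal that counted as well above background on each array of the other. The adjusted p beside a bound is that of the difference without the bound. A probe well above background on no PI array could be tested only if it was so on all 7 MI arrays. Intestine-specific homeobox, which represses vitamin A and carotenoid uptake in mammals, measured -3.66 to 0.00 (median -1.16) in MI and -9.2 to -3.79 (median -8.71) in PI (log2 difference 6.31, SE 0.79, adjusted p = 1.2e-05; 5.15 with a floor on dim signals and 7.26 without PI replicates 7 and 8). Forkhead box protein D2 was higher in PI instead, with -5.76 to -1.18 (median -3.55) in MI and 1.62 to 2.42 (median 2.09) in PI and no overlap (log2 difference -5.56, SE 0.54, adjusted p = 9.1e-07).

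Of 14 gut hormone and neuropeptide genes tested, 11 were called higher in MI and 2 higher in PI. Peptide Y, of the neuropeptide Y family that acts on feed intake, measured 0.92 to 7.11 (median 3.0) in MI and -8.72 to -6.48 (median -6.99) in PI, and the lowest MI array was still more than 7 log2 units above the highest PI array (log2 difference 10.98, SE 0.80, adjusted p = 3.3e-08). Gastrin measured 0.54 to 4.92 (median 1.74) in MI and -5.83 to -4.31 (median -4.68) in PI (log2 difference 7.05, SE 0.53, adjusted p = 5.3e-08), and neuromedin-B-like, a bombesin-like peptide that contracts gut muscle, -0.94 to 4.5 (median -0.39) in MI and -8.96 to -3.88 (median -6.56) in PI (log2 difference 7.03, SE 0.90, adjusted p = 1.5e-05; 6.38 without MI replicate 7 and 7.83 without PI replicates 7 and 8). In all 3 the highest array was MI replicate 7. Glucagon-1, whose precursor also yields the glucagon-like peptides, measured 2.31 to 3.7 (median 3.02) in MI and -0.65 to 0.36 (median 0.16) in PI (log2 difference 3.01, SE 0.20, adjusted p = 1.2e-08). Tryptophan 5-hydroxylase 2, which makes the first step to serotonin, was higher in MI with -3.12 to -2.21 (median -2.65) in MI and -6.43 to -4.38 (median -5.51) in PI and no overlap (log2 difference 2.85, SE 0.28, adjusted p = 9.9e-07). A second tryptophan 5-hydroxylase was higher in PI with -3.26 to -1.66 (median -2.65) in MI and -2.07 to 0.70 (median -1.6) in PI, and its groups overlapped (log2 difference -1.47, SE 0.43, adjusted p = 0.014).

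B cell genes were higher in PI but rarely separated the arrays. Of 18 B cell and immunoglobulin genes tested, none was called higher in MI, 14 were called higher in PI, and 1 had no overlap (median -1.40). Without PI replicates 7 and 8, 17 were called. Fewer were called with normexp correction (12), with the joint fit (13), and without MI replicate 6 or MI replicate 7 (12 each). Within single slides the calls numbered 4 in slide 1, 7 in slide 2 and 0 in slide 3. With a block for replicate numbers 1 to 7, which leaves out PI replicate 8, 18 were called. Whether equal numbers mark the same fish is not given by the labels. The secreted Ig heavy chain C region measured -2.86 to 1.78 (median -1.25) in MI and -0.45 to 3.47 (median 1.99) in PI, with overlap (log2 difference -3.35, SE 0.69, adjusted p = 0.0013). CD79b, a signalling chain of the B cell receptor, measured -3.52 to 0.40 (median -2.94) in MI and -1.34 to 2.24 (median 0.82) in PI (log2 difference -3.03, SE 0.62, adjusted p = 0.0013). Its highest MI array was replicate 3, at 0.40, and its lowest PI arrays were replicates 7 and 8, at -1.34 and -0.73. The same 3 arrays took these places in the mean over the B cell list, with -0.33 for MI replicate 3 and -0.92 and -0.75 for PI replicates 7 and 8. They also did so in the T cell list (-2.55, -3.24 and -3.12) and the list of Toll-like receptors, interleukins and chemokines (-1.35, -1.30 and -1.24). In the antigen presentation and granulocyte lists they did not all take these places.

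Of 18 T cell and cytotoxic cell genes, 4 were called higher in MI and 11 higher in PI (3 and 6 with normexp correction). The T-cell surface glycoprotein CD4, the co-receptor of helper T cells, measured -5.75 to -3.66 (median -4.71) in MI and -3.96 to -2.01 (median -3.05) in PI, with overlap (log2 difference -1.55, SE 0.32, adjusted p = 0.0013). Perforin, the pore-forming protein of cytotoxic cells, went the other way, being well above background on all 7 MI arrays, at -5.98 to -1.51 (median -3.62) in MI with replicates 4 and 2 lowest and replicate 5 highest as for elastase 2A, and on no PI array, which gave a fold of at least 12.1 (adjusted p = 6.4e-06). The part of pancreatic tissue in this value was not tested. Of 12 antigen presentation genes 3 were called higher in MI and 7 higher in PI. A class II histocompatibility antigen, the B-L beta chain, measured -6.89 to -4.51 (median -5.82) in MI and -2.25 to 0.51 (median -1.17) in PI without overlap (log2 difference -5.0, SE 0.40, adjusted p = 1.0e-07). Of 11 granulocyte and phagocyte genes 2 were called higher in MI and 8 higher in PI, and none was free of overlap. Myeloperoxidase, an enzyme of neutrophil granules, measured -1.89 to -0.02 (median -1.32) in MI and -0.67 to 2.18 (median 0.39) in PI, with overlap (log2 difference -1.83, SE 0.45, adjusted p = 0.0045).

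Of 41 Toll-like receptor, interleukin and chemokine genes, 5 were called higher in MI and 31 higher in PI. The count of calls in PI was 24 without MI replicate 1 and 19 with normexp correction. All 6 Toll-like receptors tested were called higher in PI, at -1.11 to -0.62, but with normexp correction 2 were called and 1 turned its sign. Interleukin-8, which attracts neutrophils, measured -0.33 to 0.67 (median 0.16) in MI and 1.43 to 2.52 (median 1.64) in PI and separated the groups (log2 difference -1.64, SE 0.18, adjusted p = 2.9e-06). Interleukin-10, which restrains inflammation, measured -5.43 to -4.26 (median -4.89) in MI and -4.74 to -2.57 (median -3.88) in PI with overlap (log2 difference -0.99, SE 0.28, adjusted p = 0.012). C-X-C chemokine receptor type 5, which guides B cells to follicles, measured -3.99 to 0.41 (median -2.96) in MI and -1.92 to 1.95 (median 0.73) in PI, with MI replicate 3 again highest in MI (log2 difference -3.13, SE 0.66, adjusted p = 0.0016; -3.75 without PI replicates 7 and 8).

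Antimicrobial proteins included the 2 largest differences among the genes named here. Of 9 tested, 6 were higher in MI, 2 higher in PI and 1 was not called. Natterin-3-like, of a fish toxin and defence protein family, measured 4.06 to 8.78 (median 6.87) in MI and -9.32 to -4.42 (median -8.45) in PI and was well above background on 2 of 8 PI arrays (log2 difference 14.75, SE 0.74, adjusted p = 4.2e-10). Its difference was 13.59 with a floor on dim signals and 15.49 without PI replicates 7 and 8. Acidic mammalian chitinase, which digests chitin, measured 0.27 to 8.32 (median 6.82) in MI and -9.1 to -6.72 (median -7.75) in PI, with MI replicate 3 far below the other MI arrays (log2 difference 13.87, SE 0.92, adjusted p = 1.2e-08; 13.14 with a floor on dim signals and 14.85 without MI replicate 3). Lysozyme C, which cleaves bacterial walls, measured 5.99 to 7.12 (median 6.7) in MI and -3.23 to 2.48 (median -2.28) in PI (log2 difference 7.88, SE 0.82, adjusted p = 1.8e-06; 9.08 without PI replicates 7 and 8). Beta-defensin, a bactericidal peptide, was higher in PI at -7.45 to -0.62 (median -4.24) in MI and 1.03 to 4.04 (median 2.64) in PI (log2 difference -6.57, SE 0.81, adjusted p = 1.0e-05). The differences thus ran in opposite directions within the list, with no overlap for any of these 4 genes.

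Genes of muscle and connective tissue lay on both sides. Of 15 muscle genes 5 were called higher in MI and 8 higher in PI. Myosin-11, the smooth muscle heavy chain, was higher in PI at 0.12 to 1.47 (median 0.60) in MI and 1.63 to 2.6 (median 2.06) in PI (log2 difference -1.28, SE 0.22, adjusted p = 2.6e-04). Smoothelin-like protein 2 was higher in MI at 3.07 to 6.27 (median 4.19) in MI and 2.66 to 3.1 (median 2.87) in PI, with overlap (log2 difference 1.3, SE 0.36, adjusted p = 0.0093). Of 26 extracellular matrix genes, 7 were higher in MI, 10 higher in PI and 9 not called. Collagen alpha-2(I), a main fibril collagen, was not called, at 7.29 to 8.21 (median 7.77) in MI and 7.59 to 8.52 (median 8.04) in PI (log2 difference -0.29, SE 0.17, adjusted p = 0.2). Laminin N measured -0.68 to 0.87 (median 0.63) in MI and -9.25 to -3.1 (median -8.93) in PI and was well above background on 2 of 8 PI arrays (log2 difference 8.1, SE 0.89, adjusted p = 3.2e-06; 6.7 with a floor on dim signals, 8.75 without PI replicate 8 and 9.46 without PI replicates 7 and 8). The groups were apart for laminin N and overlapped for the collagen. Fibromodulin, which organises collagen fibrils, was higher in PI at -9.06 to -6.09 (median -7.28) in MI and -3.22 to -2.19 (median -2.88) in PI (log2 difference -4.71, SE 0.38, adjusted p = 9.8e-08; -3.58 with a floor on dim signals).

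The tight junction protein claudin-2, which forms pores for cations and water, measured 2.75 to 3.39 (median 3.13) in MI and -4.51 to -0.44 (median -2.8) in PI without overlap (log2 difference 5.8, SE 0.55, adjusted p = 7.1e-07; 6.55 without PI replicates 7 and 8). Claudin-14, a sealing claudin in mammals, measured -6.63 to -2.37 (median -5.93) in MI and -2.0 to -0.63 (median -1.72) in PI and was higher in PI (log2 difference -3.46, SE 0.58, adjusted p = 2.1e-04). Of 5 goblet cell and mucus genes 2 were higher in MI and 3 higher in PI. Mucin-13, a membrane mucin of enterocytes, measured 4.63 to 5.61 (median 5.2) in MI and 3.32 to 4.79 (median 3.82) in PI with a narrow overlap (log2 difference 1.26, SE 0.20, adjusted p = 1.5e-04). Mucin-5B, a secreted mucin, was well above background on no MI array and on 7 of 8 PI arrays, at -8.19 to -1.82 (median -5.09) in PI, with a fold of at least 3.37 higher in PI (adjusted p = 6.9e-04). The 3 hemoglobin probes were higher in MI by 1.12 to 3.21, and all overlapped between the groups. The largest, for hemoglobin subunit beta-2, was 2.60 without PI replicate 6. Their mean on MI replicate 3 (-0.92) lay within the PI range of -2.87 to -0.11, and what part blood in the samples has in other differences was not tested.

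In metabolism, 15 of 22 citric acid cycle and respiratory chain genes were called higher in MI and 6 higher in PI. 2-oxoglutarate dehydrogenase, a rate-limiting enzyme of the cycle, measured -1.98 to 0.68 (median -0.14) in MI and -5.83 to -2.78 (median -3.77) in PI (log2 difference 3.7, SE 0.45, adjusted p = 9.8e-06), whereas an isocitrate dehydrogenase was higher in PI at 1.94 to 3.04 (median 2.95) in MI and 3.26 to 4.75 (median 4.08) in PI (log2 difference -1.27, SE 0.22, adjusted p = 2.4e-04). Of 22 cytochrome P450 and conjugation genes, 14 were higher in MI and 5 higher in PI. Cytochrome P450 2D15 measured 0.36 to 3.0 (median 1.86) in MI and -7.97 to -3.11 (median -5.01) in PI (log2 difference 7.07, SE 0.70, adjusted p = 1.0e-06), and cytochrome P450 2J1, higher in PI, -8.11 to -2.73 (median -4.72) in MI and -4.14 to -0.50 (median -1.71) in PI (log2 difference -2.99, SE 0.66, adjusted p = 0.0024). Only the P450 2J1 groups overlapped among these 4 genes. Among 16 genes of dividing cells 5 were higher in MI and 9 higher in PI (3 with normexp correction). Thymidylate synthase, which makes the DNA precursor dTMP, measured -2.5 to -0.74 (median -1.15) in MI and -6.93 to -5.7 (median -6.44) in PI (log2 difference 4.89, SE 0.27, adjusted p = 1.2e-09), while geminin, an inhibitor of DNA replication licensing, was higher in PI at -3.19 to -1.68 (median -2.24) in MI and -0.18 to 0.78 (median 0.35) in PI (log2 difference -2.75, SE 0.24, adjusted p = 2.2e-07).

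Of 39 G protein-coupled receptor genes, 18 were called higher in MI and 17 higher in PI, or 8 in PI with normexp correction, and the sign of their median (-0.55) turned with that correction (0.15). The extracellular calcium-sensing receptor, which senses calcium and some amino acids, was well above background on no MI array and all 8 PI arrays, at -4.48 to -2.56 (median -3.75) in PI, a fold of at least 7.83 higher in PI (adjusted p = 4.2e-09). G-protein coupled receptor 39, a zinc-sensing receptor, was higher in MI at 0.14 to 1.64 (median 1.0) in MI and -2.58 to -1.02 (median -1.94) in PI without overlap (log2 difference 2.76, SE 0.26, adjusted p = 7.5e-07). The G-protein coupled bile acid receptor 1 differed by -0.70 (SE 0.21, adjusted p = 0.017), with -5.95 to -5.06 (median -5.5) in MI and -5.39 to -3.93 (median -4.89) in PI, and with normexp correction the difference was 0.05.

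Some genes at either end of the comparison belong to none of these lists. Pepsin A, an acid protease of the stomach, measured 4.03 to 7.34 (median 5.82) in MI and -8.79 to -1.16 (median -6.42) in PI (log2 difference 12.10, SE 0.88, adjusted p = 3.4e-08; 12.83 without PI replicate 8 and 13.06 without PI replicates 7 and 8). Phosphoethanolamine N-methyltransferase 3, named for a plant enzyme of phosphatidylcholine synthesis, measured 3.44 to 6.97 (median 5.52) in MI and -3.55 to -1.85 (median -3.03) in PI (log2 difference 8.27, SE 0.50, adjusted p = 3.7e-09). In both the groups were far apart. Protein spire homolog 2-like, an actin nucleator, had one of the smallest p-values, with 0.14 to 1.35 (median 1.07) in MI and -5.29 to -4.25 (median -4.99) in PI (log2 difference 5.72, SE 0.21, adjusted p = 1.6e-11). Carriers of zinc lay on both sides, without overlap. Zinc transporter ZIP8, which imports the metal, was higher in MI at 0.43 to 1.82 (median 0.60) in MI and -5.19 to -2.05 (median -3.84) in PI (log2 difference 4.73, SE 0.47, adjusted p = 1.1e-06), and zinc transporter 8, which fills vesicles with it, higher in PI at -4.95 to -1.36 (median -1.77) in MI and 1.19 to 4.84 (median 3.68) in PI (log2 difference -5.87, SE 0.57, adjusted p = 7.7e-07).

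TMEM236, a transmembrane protein, was higher in PI with -9.41 to -3.3 (median -8.59) in MI and 2.78 to 4.16 (median 3.83) in PI, and was well above background on 1 of 7 MI arrays (log2 difference -11.36, SE 0.69, adjusted p = 4.1e-09). Its difference was -9.79 with a floor on dim signals and -12.09 without MI replicate 5. Histidine ammonia-lyase, the first enzyme of histidine breakdown, measured -7.28 to -4.75 (median -6.61) in MI and 0.07 to 2.58 (median 1.86) in PI (log2 difference -8.03, SE 0.44, adjusted p = 1.1e-09). Proline dehydrogenase 1, which starts proline breakdown, measured -3.07 to -2.59 (median -2.73) in MI and 0.48 to 1.42 (median 1.09) in PI, with a spread under 1 log2 unit in each group (log2 difference -3.84, SE 0.14, adjusted p = 1.3e-11). None of these 3 genes overlapped between the groups. Hydroxylysine kinase, of hydroxylysine breakdown, was well above background on no MI array and measured -3.92 to -2.72 (median -3.19) in PI, a fold of at least 10.6 higher in PI (adjusted p = 5.3e-11). Granulins-like, of a growth factor family found in lysosomes, measured 1.33 to 2.58 (median 2.01) in MI and 7.14 to 8.08 (median 7.63) in PI, without overlap (log2 difference -5.67, SE 0.19, adjusted p = 5.9e-12). A small conductance calcium-activated potassium channel measured 3.63 to 4.57 (median 3.97) in MI and 8.58 to 9.19 (median 9.0) in PI, where 4 of the 7 MI arrays gave a value (log2 difference -4.91, SE 0.18, adjusted p = 4.2e-10).

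In 18 of the 4481 called probes 1 segment was never well above background, MI in 10 and PI in 8. A tested probe needed 7 or more of the 15 arrays well above background. Such a probe therefore entered the test only through its higher segment, on all 7 MI arrays or at least 7 of the 8 PI arrays. The counts thus depend on the filter and do not compare the segments. Ecto-NOX disulfide-thiol exchanger 1-like, of a family of cell surface oxidases, measured -2.98 to -0.15 (median -0.99) on the MI arrays, a fold of at least 62.2 higher in MI (adjusted p = 6.5e-11). The Protein FAM107A bound was 5.84-fold higher in PI (adjusted p = 2.6e-07), with PI arrays at -5.64 to -2.43 (median -4.11).

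Some genes spread widely over the MI arrays and narrowly over the PI arrays. The ileal sodium/bile acid cotransporter, which recovers bile acids in the mammalian ileum, measured -6.18 to 2.73 (median -0.52) in MI and 2.76 to 3.93 (median 3.0) in PI (log2 difference -5.01, SE 0.99, adjusted p = 9.7e-04), or -5.77 without MI replicate 3 and -4.28 without MI replicate 7. Its highest MI array was replicate 3 and its lowest replicate 7. Gastrotropin, the ileal bile acid-binding protein, measured 3.72 to 9.67 (median 8.6) in MI and 8.91 to 9.78 (median 9.49) in PI and was not called (log2 difference -1.87, SE 0.73, adjusted p = 0.058), though its difference was -2.23 without MI replicate 3, -2.15 without MI replicate 4, -2.16 without MI replicate 6 and -1.24 without MI replicate 7, with adjusted p of 0.024, 0.039, 0.036 and 0.092. Gastrotropin was called higher in PI with quantile normalization, with normexp correction and with slide as a block. On the AI arrays gastrotropin measured -5.42 to 9.56 (median -0.78). The b(0,+)-type amino acid transporter 1, which takes up cystine and basic amino acids, measured -9.06 to 3.06 (median -8.14) in AI, -7.58 to 2.81 (median -4.98) in MI and 2.23 to 3.92 (median 3.54) in PI (log2 difference -6.4, SE 1.28, adjusted p = 0.0011; -7.37 without MI replicate 3, -7.01 without MI replicate 6 and -5.64 without MI replicate 7). Transmembrane and immunoglobulin domain-containing protein 1, an epithelial adhesion molecule, measured -6.01 to 5.73 (median 0.37) in MI and 5.96 to 7.42 (median 6.88) in PI (log2 difference -5.83, SE 1.25, adjusted p = 0.0018; -6.62 without MI replicate 3, -6.44 without MI replicate 6 and -4.67 without MI replicate 7). In all 4 genes MI replicate 3 was the highest MI array and replicate 7 the lowest.

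The mirror pattern occurred among genes higher in MI. Meprin A subunit beta, a brush border metalloprotease, measured -3.72 to 6.59 (median 1.7) in MI and -6.1 to -5.15 (median -5.83) in PI (log2 difference 7.43, SE 1.14, adjusted p = 9.0e-05; 8.33 without MI replicate 3 and 6.61 without MI replicate 7). Ammonium transporter Rh type B, which passes ammonia across membranes, measured -3.73 to 5.5 (median 0.80) in MI and -6.61 to -5.05 (median -5.83) in PI (log2 difference 6.58, SE 1.2, adjusted p = 4.8e-04; 7.25 without MI replicate 3, 5.87 without MI replicate 5, 7.34 without MI replicate 6 and 5.8 without MI replicate 7). For both, replicate 7 was the highest MI array, while replicate 3 was the lowest for meprin and replicate 6 for Rh type B. The AI arrays measured -0.73 to 6.81 (median 6.12) and -2.2 to 6.15 (median 5.47) for the same 2 genes. AI replicate 2 was the lowest AI array for both, and lay within the PI range for the 4 genes before.

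**Figure D5:**
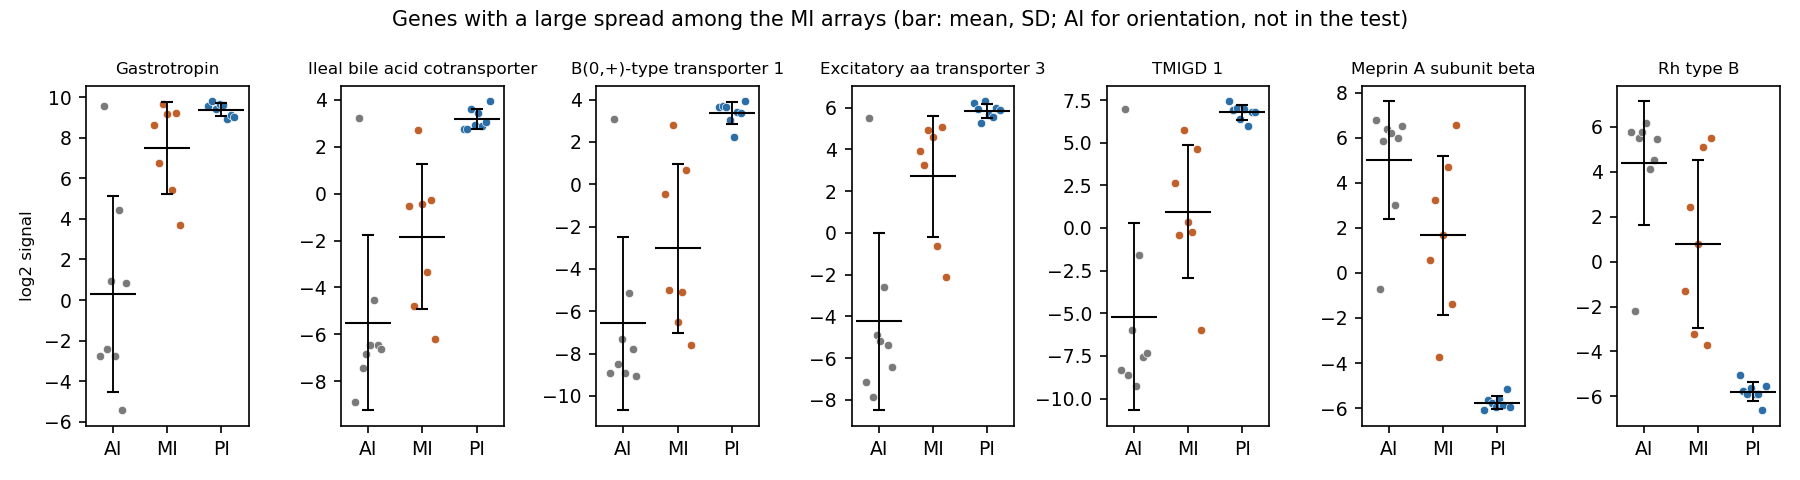
Log2 signal of 7 genes on the AI, MI and PI arrays in order along the gut, each panel on its own vertical axis, with the mean and SD of each segment as bars, and AI shown for orientation only. The MI arrays run from -7.58 to 2.81 for the b(0,+)-type transporter and from -3.73 to 5.50 for Rh type B, while the PI arrays stay within 2.23 to 3.92 and -6.61 to -5.05.

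The study had chosen 29 genes for quantitative PCR, which it ran on AI and PI samples and not on MI. All 29 were tested here on the MI and PI arrays, with 25 called, 11 higher in MI and 14 higher in PI. Of all named probes tested 88.5% were called, and of all probes tested 35.5%. Besides gastrotropin, 3 of the 29 were not called, and all 3 overlapped between the groups. Liver-expressed antimicrobial peptide-2, a defence peptide, measured -2.65 to 1.86 (median -1.01) in MI and -3.81 to -1.15 (median -1.85) in PI (log2 difference 1.37, SE 0.65, adjusted p = 0.11). The N-arachidonyl glycine receptor measured -1.7 to -0.35 (median -1.43) in MI and -1.24 to -0.15 (median -0.58) in PI (log2 difference -0.54, SE 0.24, adjusted p = 0.09), and was called without MI replicate 3 (-0.67) or MI replicate 4 (-0.68). Probable G-protein coupled receptor 63 measured -5.21 to -4.41 (median -4.78) in MI and -5.19 to -2.6 (median -4.4) in PI (log2 difference -0.70, SE 0.32, adjusted p = 0.1), and was called without PI replicate 3 (-0.86). A p above the threshold does not show that the segments were alike for these genes.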

How the data were processed

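Total RNA of each sample was labelled with Cy3 and hybridised to an 8 x 15K sea bass array, 1 sample per array. The deposited scanner files hold intensity values, the processed signals that the authors obtained with Agilent Feature Extraction 11.5.1.1, background-subtracted and not scaled between arrays. A deposited table holds the authors' log2 values per probe and array, and was used as an alternative. No genome build or annotation applies. The methods give 150 ng of RNA and the labels 100 ng.

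Control spots and outlier flags were left out, spots of a probe averaged, and log2 processed signals scaled by the 75th percentile of each array. A probe was tested if 7 or more of the 15 arrays gave it a signal well above background. The tests were run with limma 3.58.1 in R 4.3.3 (lmFit and eBayes, two-sided, Benjamini-Hochberg adjustment, threshold 0.05), MI minus PI. Tables were made with Python 3.11.15, pandas 2.3.3 and numpy 2.4.6. Groups came from the labels, and an eighth MI array is not analysed here. The test was tested on simulated data for MI against PI over 12624 probes, where 70% of 100 probes with a true difference of 1 log2 unit were called and 97% of 100 with a difference of 2, and 11 unchanged probes were called. The simulated noise was independent between arrays and equally wide in both segments, so deviations shared by arrays and unequal spreads were not covered. A far smaller share of probes differed in the simulation than the 35.5% called in the data. The adjustment was therefore stricter there, and these rates are not those of the real comparison. The number of arrays limits the precision. Alternatives were quantile normalization over 23 arrays, normexp correction (offset 50) on median signals, no filter, a filter over 23 arrays, a floor on dim signals, the authors' table, the methods' t-test, eBayes with trend and robust, a joint fit with AI, replicate and slide blocks, single slides, and arrays left out.

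Gene names came from the study's supplementary list. Members and lists were chosen with earlier results of these data known. Named were the 15 largest differences and 10 smallest p in each direction, the 5 highest signals in each direction at 2-fold, the 4 largest differences of each of 28 lists, the 29 genes of the study's quantitative PCR, the 5 largest SDs in MI, the 5 largest bounds in each direction, and 26 chosen after their values were seen. The text describes those that carry each list. That list's column of fold changes, the authors' own comparison of the segments, was not used.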

Additional observations from a re-analysis of the deposited data

Results flagged for a closer look

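In 27 of 354 groups examined, over the genes named, the highest or lowest array lay far from the others of its segment. That is 7.63%, where about 1 in 20 would be flagged by chance in independent groups. These groups share arrays and the genes were chosen from these data, so no excess can be read from the 7.63%. MI replicate 3 was the array far from the others 9 times. It was low for acidic mammalian chitinase (0.27), the GLUT5-like facilitated glucose transporter (-4.45), cytochrome P450 2D20 (-3.32) and GATA-binding factor 5-A (4.59). It was high for sorting nexin-6-like (0.67), the secreted Ig heavy chain C region (1.78), CD79b (0.40), the T-cell-specific surface glycoprotein CD28 homolog (-1.66) and C-X-C chemokine receptor type 5 (0.41). Thus 3 of these 9 genes, the Ig heavy chain, CD79b and the CXCR5 receptor, belong to B cells or guide them, and the CD28 homolog belongs to T cells.

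MI replicate 7 was low for gastric intrinsic factor-like (-1.70) and isocitrate dehydrogenase (1.94) and high for apolipoprotein A-I (0.08). MI replicate 5 was high for TMEM236 (-3.30) and low for matrix metalloproteinase-9 (-8.73). MI replicate 6 was low for legumain (5.52) and disabled homolog 2 (-1.28), and MI replicate 4 was low for trypsinogen-like protein 3 (5.49).

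Among the PI arrays, replicate 8 was high for pepsin A (-1.16), Ecto-NOX disulfide-thiol exchanger 1-like (-8.19) and membrane-associated phospholipase B1 (-1.42). Replicate 7 was high for natterin-3-like (-4.42) and low for zinc transporter 8 (1.19). Replicate 4 stood apart for hemoglobin subunit alpha-D (-1.57) and the SAM pointed domain-containing Ets transcription factor (-2.98), replicate 5 for interleukin-8 (2.52), replicate 3 for cytochrome P450 2J1 (-4.14) and replicate 6 for G-protein coupled receptor 84 (-4.09).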

How the results depend on the processing

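Few arrays bear on each slide. Within slides 1, 2 and 3 the calls numbered 1306, 1436 and 264, against 4481 over all arrays, and at 2-fold or more slide 3 alone gave 264 against 1630. With normexp correction 3969 probes were called and 976 at 2-fold or more, and 4230 of the 4481 differences kept their direction. Among the genes named, 4 turned their sign, namely G-protein coupled bile acid receptor 1 (0.0479), a T-cell receptor beta chain T17T-22-like (0.0752), matrix metalloproteinase-9 (0.0932) and G-protein coupled receptor 84 (0.146). The cause was not tested. Leaving out 1 array at a time gave 3938 to 4657 calls, and 1567 to 1766 at 2-fold or more. Quantile normalization, no filter, the filter over 23 arrays, the floor, the authors' table, the methods' t-test, trend and robust estimation, the joint fit and the slide block gave 4303 to 4708 calls, and 1592 to 1715 at 2-fold or more.

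MI and PI arrays of equal number deviated together in 6 of 7 pairs (correlations 0.24 to 0.55) but not for number 7 (0.0065). The median correlation was 0.44 for equal numbers and -0.04 for unequal numbers. As number 7 stood apart and the labels do not say whether equal numbers mark the same fish, the numbers were not taken to pair the samples. The methods describe AI, MI and PI segments excised from the sampled fish, without matching arrays to fish. The main test treated all arrays as independent, which arrays from shared fish would not be. With the replicate block, 5485 probes were called and 1750 at 2-fold or more, and 5 of 7 MI arrays correlated best with the PI array of their own number. That block also leaves out PI replicate 8, which has no MI array of its number. It called 18 of 18 B cell, 14 of 18 T cell and 9 of 12 antigen presentation genes higher in PI. With all arrays and no block the counts were 14, 11 and 7. Leaving out PI replicate 8 alone, with no block, gave 16, 12 and 7. Signals near background limit what is known of genes absent from 1 segment, whose folds are lower bounds.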
